A study of Mus musculus with 7 samples.

Results

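The interleukin-1 (IL-1) family was followed here through 9 genes: the agonist ligands Il1b, Il1a, Il1f9 and Il18, the receptor antagonist Il1rn, the decoy receptor Il1r2, and the receptor chains Il1r1, Il1rap and Il18rap. The rule names the genes as ligands, inhibitors and receptors of the family and sets no threshold on their values. They are 9 of the 28719 gene symbols in the 7 count tables.

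IL-1β and IL-1α signal through a receptor made of IL1R1 and the accessory chain IL1RAP, and this signal passes through the adaptor MyD88 to NF-κB. The receptor antagonist binds IL1R1 without signalling, and IL1R2 binds the ligand but lacks the signalling domain, so that both limit the response. IL-36γ, the product of Il1f9 (also called Il36g), also uses IL1RAP, whereas IL-18 uses a receptor of its own that contains IL18RAP. IL-1β and IL-18 are made as precursors that are cleaved after synthesis, often by caspase-1 in an inflammasome, so a transcript count does not measure active cytokine.

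Neutrophils were sorted as live CD11b+ Ly6G+ cells from male C57BL/6J mice and profiled by droplet single-cell RNA sequencing, in which a unique molecular identifier (UMI) marks each captured transcript. Healthy bone marrow, peripheral blood and spleen each gave 1 library in each of 2 runs, and the study's methods give an age of 6 weeks in run 1 and 8 weeks in run 2, so that age and run cannot be told apart. A further library held 5 conditions marked by hashtags: healthy blood, blood and joint lavage on day 7 of arthritis brought on by 150 µl of K/BxN serum on days 0 and 2, bronchoalveolar lavage 3 hours after 25 ng of intranasal IL-1β, and peritoneal lavage 3 hours after 25 ng of intraperitoneal IL-1β. The mice given serum or IL-1β were 8 weeks old. K/BxN serum carries antibodies that cause joint inflammation. By those methods the inflammation library was made with a later version of the capture chemistry than the healthy runs, so that levels set across them also differ in chemistry. Each library or condition pooled cells of 3 mice, so each healthy tissue is represented by n = 2 pools and each inflamed condition by 1 pool without a replicate.

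Healthy cells were kept where S100a8 and S100a9, the abundant calprotectin genes of neutrophils, made up at least 3% of UMIs, and cells of the inflammation library where the authors' class, by comparison with the ImmGen reference of mouse immune cells, was a granulocyte. After limits on genes per cell and mitochondrial UMIs, 17202 of 21763 deposited cells remained, 12445 healthy and 4757 in the inflammation library. The summed depth was 1299014 to 8454164 UMIs per healthy library and 939662 to 9863557 per condition. All 14 neutrophil markers were found in all 11 groups, at a summed 157734 to 512150 UMIs per 1000000 UMIs (counts per 1000000, CPM). The libraries shared 0 to 36 cell barcodes per pair. Spleen of run 1 stood apart from spleen of run 2 in its granule transcripts, at 105713 against 18412 CPM, and blood of run 2 carried 30412 erythroid CPM against 696.7 in run 1. Cells with 2 or more UMIs of defining lymphoid or macrophage genes made up at most 4.61% of the kept cells, in spleen of run 2.

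The genes lie in a few blocks of the mouse genome (GRCm38, positions from GENCODE). Il1b (chr2:129364570-129371139) and Il1a (chr2:129299610-129309972) are neighbours on the reverse strand of chromosome 2, which also carries Il1f9 (chr2:24186476-24193568) and Il1rn (chr2:24336853-24351494) on the forward strand. Il1r2 (chr1:40074079-40125231), Il1r1 (chr1:40225080-40317257) and Il18rap (chr1:40515362-40551705) lie together on chromosome 1, Il1rap on chromosome 16 (chr16:26581704-26730117) and Il18 on chromosome 9 (chr9:50554827-50581840).

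The 250 bases before the RefSeq start (GRCm38.p6, in the gene's own direction) are shown for both IL-1 ligands, for the antagonist at its first and last listed starts, and for the decoy, since the balance of these genes carries the findings. Capitals mark matches on either strand to TATAAA (the TATA box), TGANTCA (AP-1) and TTGCNNAA (C/EBP), with no overlap between them.
Il1b, chr2:129371140-129371389: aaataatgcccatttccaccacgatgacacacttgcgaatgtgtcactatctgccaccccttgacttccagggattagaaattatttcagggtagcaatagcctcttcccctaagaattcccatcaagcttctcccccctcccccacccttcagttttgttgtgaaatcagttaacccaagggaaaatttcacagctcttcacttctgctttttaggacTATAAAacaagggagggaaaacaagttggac
Il1a, chr2:129309973-129310222: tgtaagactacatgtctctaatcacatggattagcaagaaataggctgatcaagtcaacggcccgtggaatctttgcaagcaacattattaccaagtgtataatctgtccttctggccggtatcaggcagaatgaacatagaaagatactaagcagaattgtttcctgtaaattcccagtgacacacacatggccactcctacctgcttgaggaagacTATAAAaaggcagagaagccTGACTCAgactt
Il1rn first start, chr2:24336610-24336859: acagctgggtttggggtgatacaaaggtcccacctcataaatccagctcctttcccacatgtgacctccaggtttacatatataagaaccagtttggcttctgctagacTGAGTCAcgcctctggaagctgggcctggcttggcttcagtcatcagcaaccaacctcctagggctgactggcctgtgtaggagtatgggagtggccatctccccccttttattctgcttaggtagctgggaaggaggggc
Il1rn last start, chr2:24345121-24345370: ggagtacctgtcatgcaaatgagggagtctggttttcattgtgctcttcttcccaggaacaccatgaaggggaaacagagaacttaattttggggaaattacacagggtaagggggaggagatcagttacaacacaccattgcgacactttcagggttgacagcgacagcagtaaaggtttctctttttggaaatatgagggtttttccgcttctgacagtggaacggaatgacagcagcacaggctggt
Il1r2, chr1:40085843-40086092: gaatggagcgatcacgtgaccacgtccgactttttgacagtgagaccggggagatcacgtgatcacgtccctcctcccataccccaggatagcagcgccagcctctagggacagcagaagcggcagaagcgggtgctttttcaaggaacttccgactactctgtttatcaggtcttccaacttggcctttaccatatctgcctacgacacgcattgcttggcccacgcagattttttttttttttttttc
The windows of both ligands held TATAAA, at 31 to 26 bases before the start in Il1b and 32 to 27 in Il1a. Among 32851 windows of this length 12.4% held TATAAA, 6.75% held TGANTCA and 9.56% held TTGCNNAA. TGANTCA was found before Il1a and before the first start of Il1rn, and none of these 3 motifs stood in the windows of Il1r2 or of the last start of Il1rn. A loose NF-κB motif was searched as well and is not capitalised, since 45.8% of all windows held it. It was found 54 to 45 bases before the first start of Il1rn and 51 to 42 before the last, and not in the other 3 windows shown. These are matches of letters in short windows, and counts taken near the end of a transcript do not show which start was used.

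Il1b was the ligand with the most transcripts in blood and spleen, whereas Il1f9 had more in both marrow libraries, and Il1b had the widest range of the members in healthy tissue. Marrow of run 1 held 49.6 CPM, spleen 565 and blood 1881, and in run 2 the values were 237, 3157 and 3689. Each marrow library lay below every blood and spleen library, and each run gave the order marrow, spleen, blood. Relative to marrow, Il1b was 18.9-fold higher in blood (log2 4.24 ± 0.38 SE, adjusted p = 0.00454) and 10.2-fold higher in spleen (log2 3.35 ± 0.36, adjusted p = 0.0220) by edgeR's quasi-likelihood test with the run as a block. Spleen and blood were not called different (log2 -0.89 ± 0.34, adjusted p = 0.471).

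**Figure D1:**
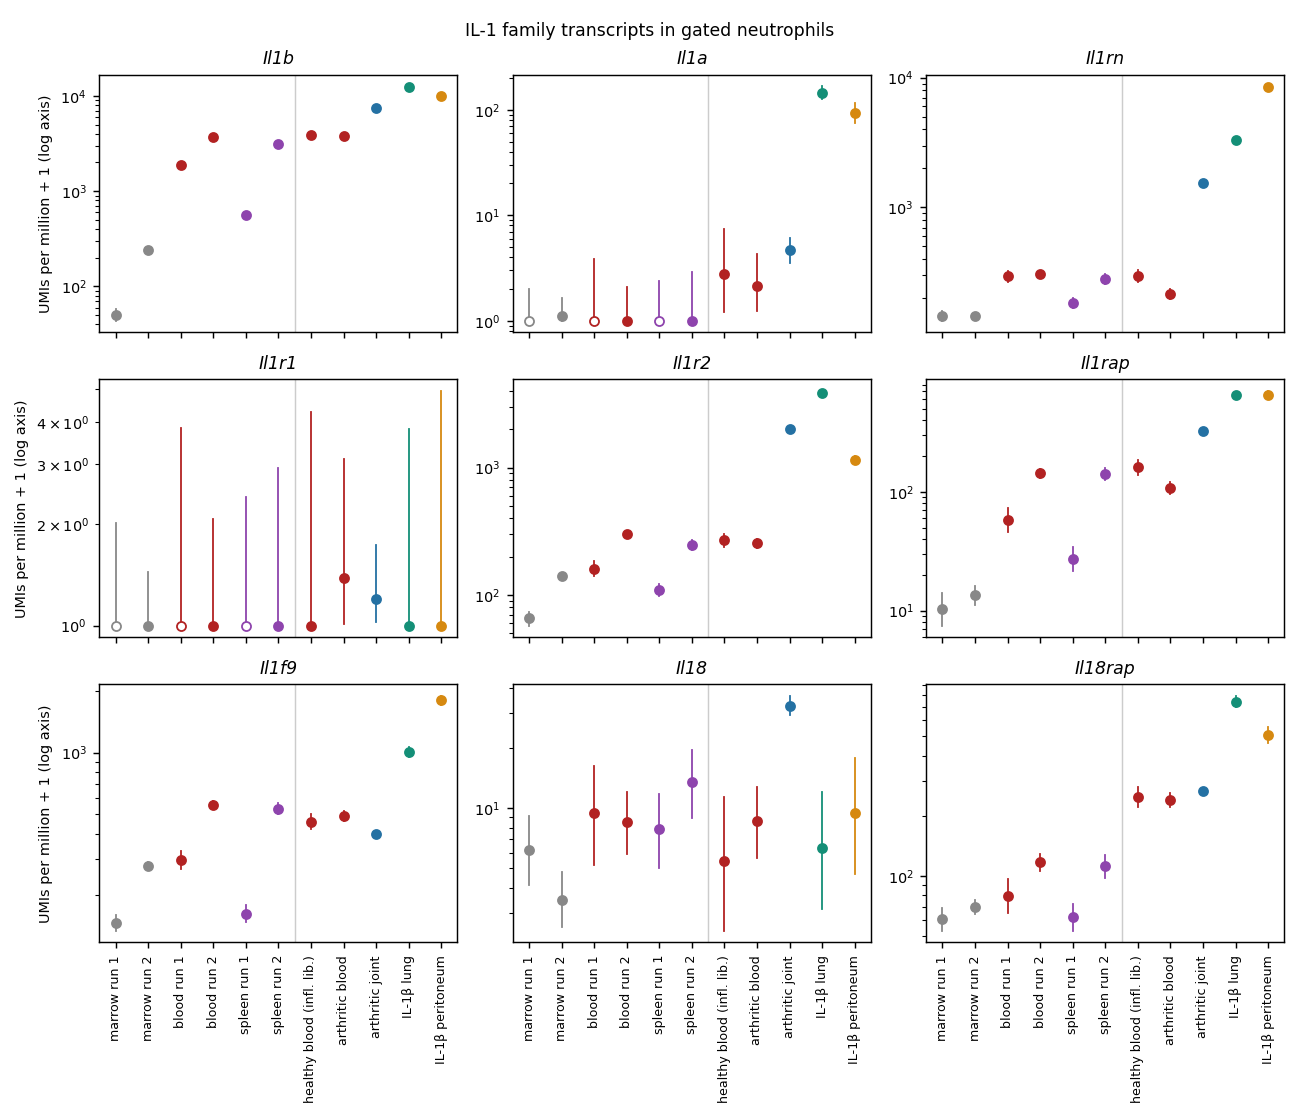
CPM plus 1 (log axis, its range set for each gene) of the 9 members in the 6 healthy libraries and the 5 conditions of the inflammation library, which stand right of the grey line. Points are pooled cells of 1 library or condition, bars are 95% Poisson intervals for counting error only, and open points are genes that a table does not list. Il1b rises from marrow to blood, Il1a leaves the baseline at the IL-1β lung and peritoneum, and Il1r1 stays at or near 0.

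Il1a was close to absent from healthy neutrophils. In the run 2 tables it had 1 UMI in marrow and 0 in blood and spleen, and 0 UMIs in blood allow up to 0.870 CPM. The run 1 tables list only genes with at least 11 UMIs, so Il1a and Il1r1, which they do not list, had at most 10 UMIs in each.

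Il1f9 was present in marrow already, at 144 and 276 CPM in runs 1 and 2, compared with 296 and 553 in blood and 161 and 528 in spleen. Both blood libraries lay above both marrow libraries while spleen overlapped with each, and blood was not called against marrow (log2 0.64 ± 0.21, edgeR adjusted p = 0.0774). Il18 was low throughout, from 2.48 CPM in marrow of run 2 to 12.4 in spleen of run 2, with 11 to 26 UMIs behind each value. In cells below the gate, with 6 to 13 UMIs each, Il18 stood higher than in the kept cells in both marrow libraries (21.7 and 6.98 CPM), blood of run 1 (21.4) and spleen of run 1 (31.7), and lower in blood and spleen of run 2 (3.26 and 1.44). The part of such cells in the Il18 values was not tested.

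The antagonist Il1rn spanned a narrower range. It stood at 145 and 144 CPM (marrow), 183 and 280 (spleen) and 293 and 306 (blood), and the 3 tissues did not overlap. On the scale of edgeR's TMM factors blood was 1.59-fold above marrow (log2 0.67 ± 0.19), which missed the threshold at an adjusted p of 0.0527, and with edgeR's newer quasi-likelihood option the same difference reached 0.0485. The decoy Il1r2 stood at 64.4 CPM (marrow), 109 (spleen) and 160 (blood) in run 1 and at 140, 245 and 298 in run 2. It was called higher in blood than in marrow, 1.76-fold (log2 0.81 ± 0.20, edgeR adjusted p = 0.0361), and both blood libraries lay above both marrow libraries, while spleen overlapped with each.

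Of the receptor chains, the accessory chain Il1rap followed Il1b. It rose from 9.32 and 12.4 CPM in marrow to 57.0 and 143 in blood and 26.2 and 141 in spleen. Both marrow libraries lay below the others, and spleen of run 1 lay nearest to them. Blood was 6.70-fold above marrow (log2 2.74 ± 0.38, edgeR adjusted p = 0.00850) and spleen 5.17-fold (log2 2.37 ± 0.38, adjusted p = 0.0363). Il18rap stood between 60.0 and 116 CPM in all 6 libraries and was called in no comparison. The signalling receptor Il1r1 had 0 UMIs in each run 2 library, where the deepest, marrow, allows up to 0.355 CPM.

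Altogether 7 of the 9 members passed the filter on low counts, and Il1a and Il1r1 did not. Against marrow, 3 members were called higher in blood (Il1b, Il1r2, Il1rap) and 2 in spleen (Il1b, Il1rap), where 9.87% and 1.51% of 7599 tested genes were called higher and 8.62% and 0% lower. No member was called lower than in marrow. Between spleen and blood edgeR called 0 members and DESeq2 also 0, with 1 member (Il1b) at an unadjusted p under 0.05, and 0% of genes were called higher and 0.0658% lower. The members' median log2 difference from marrow was 0.77 in blood and 0.53 in spleen, against -0.01 and 0.00 over all tested genes. These calls rest on the run as a block: without it edgeR called 0 members in either comparison with marrow, with an adjusted p of 0.156 for Il1b and 0.158 for Il1rap in blood. In blood against marrow edgeR called 0 members without blood of run 2 (adjusted p of 0.0775 for Il1b), 1 without blood of run 1, 2 without either marrow library, and 5 without either spleen library, when Il1rn and Il1f9 were called too. In spleen against marrow it called 0 without either blood library (adjusted p of 0.0795 and 0.120 for Il1b) and 1 without marrow of run 2.

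The share of cells with a transcript followed the levels. In cells thinned to 500 UMIs, Il1b was seen in 2.85% (marrow), 35.3% (spleen) and 56.8% (blood) of cells of run 1, and in 13.7%, 76.6% and 80.4% of those of run 2. Before thinning these shares ran from 8.21% to 91.6%, and 12 cells of blood of run 1 were too shallow to be thinned. Il1rn was seen in 7.17% to 14.9% and Il1r2 in 3.89% to 13.5% of thinned cells. Cells outside the gate with B-cell genes should lack these transcripts, and in spleen of run 2 an Il1b UMI was seen in 14.0% of 1339 such cells, at a median of 1425 UMIs, compared with 88.4% of the kept cells, at a median of 777. An Il1rn UMI was seen in 1.27% and an Il1r2 UMI in 1.57% of those cells. In marrow of run 2 the share was 3.36% of 149 such cells at a median of 1716 UMIs, against 27.5% of kept cells at 2113. In blood of run 2 it was 15.4% of 65 such cells, at a median of 1509 UMIs, and 27.6% of 722 cells with haemoglobin genes, at 2753, against 91.6% of kept cells at 829. The kept cells thus lay above the background of the same library in all 3, and no background from marked cells was taken in run 1. Among all cells below the gate in run 1, an Il1b UMI was seen in 9.23% of 65 marrow cells (median 5168 UMIs). It was seen in 45.2% of 84 spleen cells (1404) and 40.4% of 282 blood cells (1592). The kept cells of run 1 stood at 8.21% (2576), 47.0% (1358) and 69.9% (844). These shares did not set marrow and spleen of run 1 apart from cells outside the gate.

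Granule transcripts such as Ltf and Camp are made by immature neutrophils and fall as the cells mature, so the cells of each healthy library were divided by the share of 11 granule genes in their UMIs. The limits of 1% and 5% were chosen after the values were seen. In marrow of run 2, Il1b was lowest, at 37.8 CPM, in cells at 5% or more (95% Poisson interval 32.3 to 43.9) and stood at 215 between the limits and 951 under 1%. In marrow of run 1 the same steps were 11.4, 40.8 and 312. The S100 and granule genes are part of the CPM total, and without them the values were 74.0, 357 and 1394 in marrow of run 2 and 23.6, 68.0 and 451 in marrow of run 1. All 6 libraries gave this order for Il1b on both scales, with 24 to 120 cells in each of the upper groups in blood. In run 2 the cells at 5% or more held 103 CPM in blood (9 UMIs) and 82.9 in spleen. Cells outside the gate with B-cell genes held more Il1b in those libraries, at 233 and 96.9 CPM, but 15.1 in marrow. The lowest groups in blood and spleen of run 2 thus did not stand above background, and no such background was taken in run 1. Cells of a library share their pool, and no test was made.

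Within cells under 1%, Il1b was still lowest in marrow, at 312 and 951 CPM, compared with 2638 and 3842 for blood and 2415 and 3675 for spleen. Spleen of run 1, in which 40.5% of cells stood at 5% or more, thus came close to blood of its run in this fraction, in contrast to its whole. Il1rn in these cells was 262 to 392 CPM in every library, marrow included. Il1r2 was 137 to 299 and Il1f9 was 385 to 617.

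**Figure D2:**
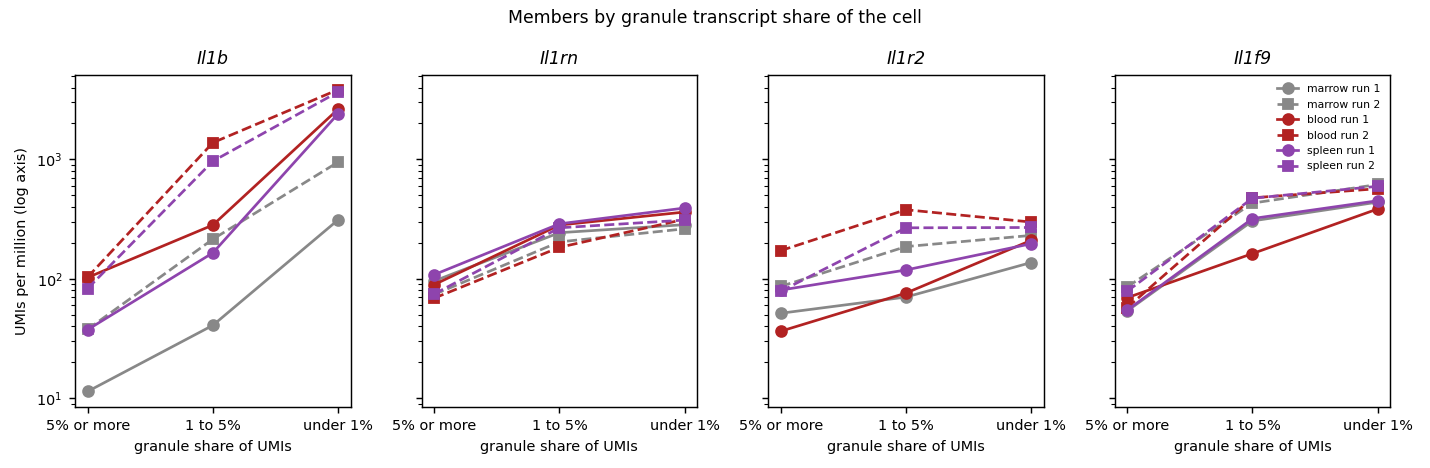
CPM (log axis) of Il1b, Il1rn, Il1r2 and Il1f9 in healthy cells with 5% or more, 1 to 5% and under 1% of UMIs from granule genes, for each of the 6 libraries (solid lines run 1, broken lines run 2). Il1b is higher to the right in every library and separates marrow from blood and spleen at the right, where the Il1rn lines lie together at 262 to 392.

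The balance of agonist to inhibitor transcripts followed Il1b. For each Il1rn UMI run 1 had 0.342 Il1b UMIs in marrow, 3.08 in spleen and 6.41 in blood, and run 2 had 1.65, 11.3 and 12.1. In marrow of run 1 the antagonist thus outnumbered the agonist, and in the other 5 healthy libraries the agonist was ahead. On the log2 scale blood lay above marrow by 3.55 on average, by 4.22 in run 1 and 2.87 in run 2. The exact permutation test of the variation between the 3 tissues gave p = 0.133 (n = 2 each), where the smallest p that this design allows is 0.0667. It takes the 3 tissues together and has no direction, so it is not a test of blood against marrow.

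For each Il1r2 UMI run 1 had 0.770 Il1b UMIs in marrow, 5.21 in spleen and 11.7 in blood, and run 2 had 1.69, 12.9 and 12.4. Blood lay above marrow by 3.40 on the log2 scale, by 3.93 in run 1 and 2.87 in run 2. The same exact permutation test over the 3 tissues gave p = 0.200. With labels permuted within runs as a replicate block, p was 0.167 for Il1rn and 0.333 for Il1r2, and no p under 0.167 was possible. This permutation test therefore could not pass 0.05 for either balance, and both runs gave the same direction. Against both inhibitors summed, marrow had 0.237 Il1b UMIs per inhibitor UMI in run 1 and 0.836 in run 2 (0.787 to 0.887). The inhibitors together thus outnumbered Il1b in both marrow libraries, whereas blood and spleen stood at 1.94 to 6.11.

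**Figure D3:**
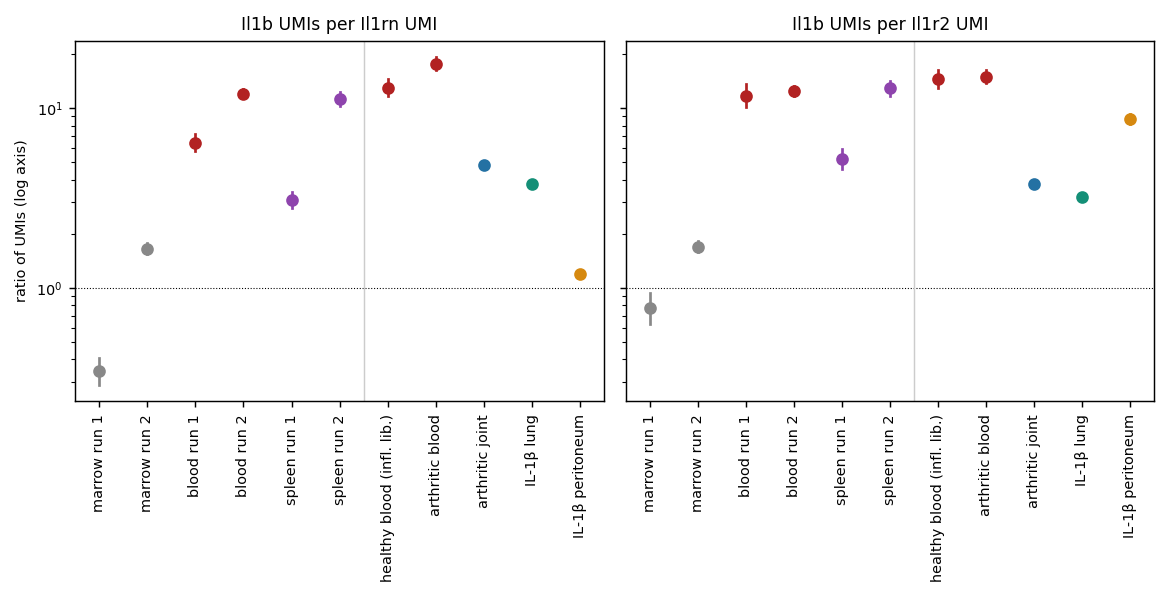
Il1b UMIs per Il1rn UMI (left) and per Il1r2 UMI (right) on a log axis, for 6 healthy libraries and, right of the grey line, 5 conditions of 1 library. Bars are exact 95% binomial intervals for counting error only and the dotted line marks equal counts. Blood sits at 6.41 or more in both panels, whereas the IL-1β peritoneum stands at 1.19 for Il1rn and the IL-1β lung at 3.22 for Il1r2.

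Neutrophils of the joint, lung and peritoneum had more Il1b, Il1rn and Il1r2 transcripts than healthy blood, and the ratio to healthy blood was larger for both inhibitors than for Il1b. Il1b stood at 3870.4 CPM in healthy blood of the same library and at 3784 in arthritic blood, 7504 in the arthritic joint, 9987 in the IL-1β peritoneum and 12426 in the IL-1β lung. Relative to healthy blood this was 1.94-fold in the joint (exact 95% interval 1.88 to 2.00), 2.58-fold in the peritoneum (2.49 to 2.68) and 3.21-fold in the lung (3.10 to 3.32). Arthritic blood stayed at 0.978-fold (0.943 to 1.01). These intervals cover counting error only, and no difference between conditions was tested, since each is 1 pool.

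The antagonist Il1rn stood at 297 CPM in healthy blood, 215 in arthritic blood, 1551 in the joint, 3299 in the lung and 8399 in the peritoneum. The ratio to healthy blood was 5.22 in the joint (4.68 to 5.83), 11.1 in the lung (9.92 to 12.4) and 28.2 in the peritoneum (25.3 to 31.6). The peritoneum was thus highest for the antagonist, although the lung was highest for Il1b. Adgre1, the gene of the macrophage marker F4/80, also stood higher in the peritoneum, at 156 CPM against 23.6 to 44.5 in the other 4 conditions. Csf1r, at 110 CPM in the peritoneum, was below healthy blood (167) and arthritic blood (112) but above the lung (68.6) and the joint (79.2). Ly6c2, at 114, was above healthy blood (66.8) but below the lung (196), the joint (166) and arthritic blood (184). Of 11 monocyte or macrophage genes 7 to 11 were detected in each condition, at a summed 283 to 390 CPM, which was highest in the peritoneum. C1qa, C1qc and Ccr2 had 0 UMIs in the lung and peritoneum, where 0 UMIs allow up to 2.29 and 3.19 CPM. C1qb, Fcgr1 and F13a1 each stood at 1.06 CPM in the peritoneum, and 0 peritoneal cells held 2 or more UMIs of defining markers. The part of monocytes or macrophages in the Il1rn value was not tested.

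Il1r2 gave another order. It stood at 267 CPM in healthy blood, 253 in arthritic blood, 1988 in the joint, 3859 in the lung and 1153 in the peritoneum. The ratios were 7.44 in the joint (6.64 to 8.37), 14.4 in the lung (12.9 to 16.3) and 4.31 in the peritoneum (3.79 to 4.92). Between the IL-1β sites, which received the same dose for the same time by different routes, the lung held 3.35 times the Il1r2 (3.13 to 3.58) and the peritoneum 2.55 times the Il1rn. Il1rn over Il1r2 was 0.855 in the lung and 7.29 in the peritoneum. Of 3485 genes, 8.98% lay 2-fold higher and 9.41% 2-fold lower in the lung than in the peritoneum, and among 7 members over the floor 1 lay higher (Il1r2) and 1 lower (Il1rn).

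**Figure D4:**
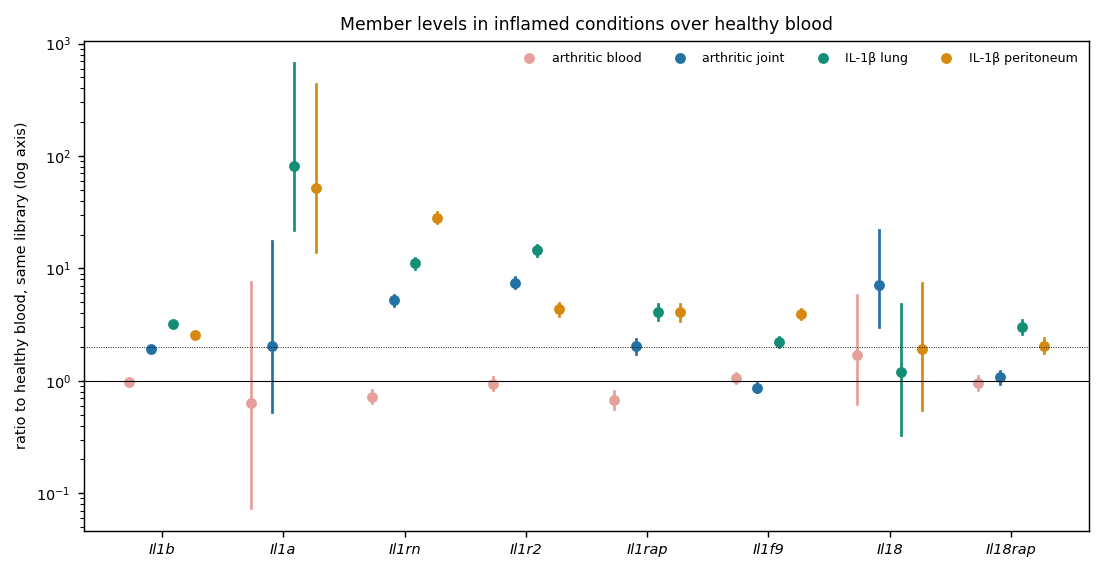
Ratio of CPM to healthy blood of the same library (log axis) for 8 members in arthritic blood, arthritic joint and the lung and peritoneum after IL-1β, with exact 95% intervals for counting error only. The solid line is no difference and the dotted line 2-fold. Il1rn is highest in the peritoneum at 28.2 and Il1r2 in the lung at 14.4, and arthritic blood lies near or below 1 for most members, where Il1b, Il1r2 and Il18rap turn above 1 when scaled to the median gene.

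Il1a was seen at the sites of IL-1β. It had 189 UMIs in the lung (144 CPM, 95% Poisson interval 124 to 166) and 87 in the peritoneum (92.6, 74.2 to 114), compared with 36 in the joint (3.65), 3 in arthritic blood and 2 in healthy blood. With 2 UMIs in the reference the ratios are wide, 80.8 in the lung (22.1 to 672) and 52.0 in the peritoneum (14.0 to 436). A UMI was seen in 10.6% of lung and 13.6% of peritoneal cells before thinning, and in 3.27% and 5.57% at 500 UMIs.

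Il1f9 was higher at the IL-1β sites. It stood at 457 CPM in healthy blood, 485 in arthritic blood, 398 in the joint, 1009 in the lung and 1804 in the peritoneum, which was 3.95-fold (3.57 to 4.37). Il18 was highest in the joint, at 31.5 (311 UMIs) against 4.45 to 8.51 in the other 4 conditions, each with 5 to 20 UMIs. The joint also held Fcgr1, a macrophage receptor gene, at 8.11 CPM against 0.759 to 1.52 in the other 4 conditions. C1qa, C1qb and C1qc, at 2.84, 3.95 and 2.03 CPM, were highest there as well, and all 11 monocyte or macrophage genes were detected. Csf1r in the joint, at 79.2 CPM, was below both bloods (167 and 112) and the peritoneum (110) but above the lung (68.6). Adgre1, at 32.0, was below both bloods (44.5 and 38.7) and the peritoneum (156) but above the lung (23.6). Of the joint's cells, 1.29% carried defining markers of other cells. Without those cells the log2 ratio of Il18 to healthy blood was 2.67, against 2.69 with them.

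The accessory chain Il1rap was 2.02-fold in the joint (1.74 to 2.36) and 4.06-fold and 4.07-fold in lung and peritoneum, from 159 CPM in healthy blood. Il18rap was 3.01-fold in the lung (2.63 to 3.45) and 2.05-fold in the peritoneum (1.76 to 2.38), from 248. Il1r1 had 2 UMIs in the joint, 1 in arthritic blood and 0 in the other 3 conditions.

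Counting a member as past the fold at 2-fold or more with at least 20 CPM in 1 of the 2 conditions, 0 of 6 members were higher in arthritic blood, 4 of 7 in the joint, and 7 of 7 in both the lung and the peritoneum. The share of all genes over that floor that were higher was 0.627%, 9.94%, 11.3% and 11.3% in the same order, and 7.98%, 24.5%, 50.3% and 51.2% were lower. Il1a at both IL-1β sites and Il18 in the joint passed the floor only through the condition where they were high, so they could be counted only as higher, and the counts are descriptions. No member was lower in any of the 4. On this scale the log2 ratio of the median gene was -0.39, -0.49, -1.01 and -1.04, so relative to the median gene each member stands higher by that amount, and Il1b in the joint passes 2-fold. With that scaling Il1b, Il1r2 and Il18rap in arthritic blood turn from slightly below healthy blood to above it (0.36, 0.31 and 0.34 on the log2 scale), and Il1f9 in the joint from -0.20 to 0.29. Against arthritic blood in place of healthy blood, 4 members were higher in the joint (Il1rn, Il1r2, Il1rap, Il18), where 14% of genes were higher and 8.59% lower.

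The balance of Il1b to Il1rn was lowest in the peritoneum and that of Il1b to Il1r2 in the lung. Il1b UMIs per Il1rn UMI were 13 in healthy blood (11.6 to 14.6), 17.6 in arthritic blood (16.2 to 19.2), 4.84 in the joint (4.75 to 4.92), 3.77 in the lung (3.64 to 3.90) and 1.19 in the peritoneum (1.15 to 1.23). Per Il1r2 UMI they were 14.5, 15.0, 3.78, 3.22 and 8.66. Against both inhibitors summed, the ratio was 6.85 in healthy blood, 2.12 in the joint, 1.74 in the lung and 1.05 in the peritoneum, whose interval of 1.02 to 1.08 lay just above equal counts.

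Transcripts were also counted per cell. In cells thinned to 1000 UMIs, which left out 56 to 152 shallower cells per condition, the median cell held 3 Il1b UMIs in healthy and in arthritic blood, 5 in the joint, 11 in the lung and 9 in the peritoneum. The top 10% of cells held 34.6% of all Il1b UMIs in the joint and 24.1% to 29.3% in the other 4 conditions, and no Il1b UMI was seen in 13.7% of joint cells and 13.6% of healthy blood cells. Both Il1rn and Il1r2 were seen in 5.65% of healthy blood cells, 5.54% of arthritic blood cells, 39.2% of joint cells, 73.4% of lung cells and 50.2% of peritoneal cells. In the joint, 46.5% of the 1201 cells above the median for Il1b held an Il1rn UMI, compared with 59.5% of the other 1477, and for Il1r2 the shares were 77.3% and 69.1%. For Il1rn the order was the other way in the lung (87.2% and 82.4%) and in arthritic blood (22.6% and 18.2%), and the shares were 95.4% and 96.7% in the peritoneum and 22.5% and 25.4% in healthy blood. The 5 conditions share 1 library and its free RNA, no background share was taken there, and the shares are descriptions.

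The members also differed between the authors' reference classes within the joint. Joint cells of the class named GN.Bl held 6852 Il1b, 330.4 Il1rn and 862 Il1r2 CPM, and those of GN.Arth.SynF held 7935, 1727 and 2183. Cells of GN.Thio.PC held 3877 Il1b but 1461 Il1rn. The classes were assigned from the same transcriptomes, so that they are not independent of these levels.

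Other genes of the pathway, from 3 lists, were then set beside the members. Of 16 genes of proximal signalling, 13 were tested between tissues and 2 were higher in blood than in marrow: Myd88, the adaptor of the receptor (log2 1.41 ± 0.21, edgeR adjusted p = 0.00981), and Peli1, an E3 ligase (log2 1.37 ± 0.25, adjusted p = 0.0154). None of the 13 was called lower, and this count stands beside 9.87% of all tested genes higher and 8.62% lower. Of 17 genes of processing 10 were tested, 4 were higher and 1 was lower. The sensor Nlrp3 rose by 2.50 (± 0.30, edgeR adjusted p = 0.00567), the pyrin gene Mefv by 2.49, and the DNA sensor Aim2 by 1.72, whereas the inflammasome adaptor Pycard fell by 1.43 on the log2 scale. The fifth called gene, Casp4 (log2 1.42), fell outside the rule for named genes and was added after its value was seen. In spleen against marrow Nlrp3 and Mefv were called higher as well. Of 12 other family members 2 were tested and 0 were called by edgeR, with 0 at an unadjusted p under 0.05.

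At the IL-1β sites some regulators of the receptor complex stood higher than in healthy blood. Irak2 was 5.38-fold in the lung and 8.41-fold in the peritoneum, the inhibitory kinase relative Irak3 3.92-fold and 7.42-fold, and the ubiquitin ligase Traf6 11.2-fold and 6.13-fold. Irak1 in the lung stood at 0.259 of healthy blood of the same library and Peli2 in the peritoneum, with 4 UMIs, at 0.199. The size of these ratios depends on which healthy blood is the reference. Against run 2 the direction turns for Irak1 in the lung and for Peli2 in the peritoneum. Irak1 had 17.5 CPM in the lung and 67.7 in that healthy blood, but 19.2 and 12.8 in healthy blood of runs 1 and 2, and Peli2 had 4.26 in the peritoneum and 21.4 in that healthy blood, but 14.6 and 3.77 in runs 1 and 2. Irak2 had 46.3 CPM in that healthy blood but 15.4 and 17.4 in runs 1 and 2, Irak3 50.8 but 19.2 and 17.98, and Traf6 13.4 but 7.70 and 4.64, so that the ratios of these 3 would be larger. Chemistry and library cannot be told apart in these comparisons with runs 1 and 2.

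Altogether 3 of 11 genes of proximal signalling over the floor were higher at either site, beside 11.3% of all genes. Among these 3, Traf6 passed the floor through the IL-1β sites only. Lower were 3 (lung) and 4 (peritoneum), beside 50.3% and 51.2%, so that lower genes were no more frequent than among all genes. Irak1 at both sites and Peli2 in the peritoneum passed the floor only through healthy blood, so they could not be counted as higher. Relative to the median gene none of the 3 in the lung would be 2-fold lower (log2 -1.93, -1.74 and -1.18 for Irak1, Irak4 and Tab2 against a median of -1.01), whereas Peli2 in the peritoneum would be (-2.19 against -1.04).

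Of the processing genes, 4 of 8 were higher and 3 lower in the lung, and 4 of 9 were higher and 2 lower in the peritoneum, beside the same shares of all genes. Casp8, at 12.5 CPM in healthy blood, passed the floor there and in the joint only through the inflamed condition, so it could be counted only as higher. Casp8 was 7.15-fold and 5.04-fold, the caspase gene Casp4 4.90-fold and 10.2-fold, and Mefv 4.01-fold and 5.79-fold, whereas Capn1 in the lung stood at 0.222 and Aim2 in the peritoneum at 0.140 of healthy blood. Aim2 had 9.58 CPM in the peritoneum and 68.6 in healthy blood. It thus passed the floor only through healthy blood and could not be counted as higher. The IL-18 inhibitor gene Il18bp was 9.84-fold in the lung (4.30 to 27.7), at 52.6 CPM against 5.34 (6 UMIs) in healthy blood of the same library. Healthy blood of runs 1 and 2 held 16.9 and 11.6. The IL-18 receptor gene Il18r1 was 2.26-fold in the lung (1.27 to 4.22) and 2.53-fold in the peritoneum (1.39 to 4.80), from 15.1 CPM (17 UMIs). Of 12 other family members, 2 passed the floor in the lung and 1 in the peritoneum. Each did so only through the inflamed site, so these genes could be counted only as higher. In the joint Irak2 was past the fold upward (4.08-fold) and Irak1 (0.383) and Irak4 (0.379) downward among 10 genes of proximal signalling, and Casp8 upward (2.81-fold) among 8 processing genes, beside 9.94% of all genes higher and 24.5% lower. Irak1 in the joint, at 26.0 CPM, lay above healthy blood of runs 1 and 2, and relative to the median gene (log2 -0.49) neither Irak1 (-1.39) nor Irak4 (-1.40) would be 2-fold lower.

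Across the 11 libraries and conditions the genes most like Il1b among 2028 compared, by Pearson's r of log2 levels, were Junb (0.99), Dusp1 (0.99), Tpd52 (0.99), Il13ra1 (0.97) and Arid5a (0.97). Those most like Il1rn were Bcl2a1b (0.99), Nfkbia (0.99), Bcl2a1d (0.98), Tnfaip3 (0.98) and Sqstm1 (0.98), and those most like Il1r2 were Trem1, Tlr4, Cd14, Hif1a and Ptgs2 (0.98 to 0.97). Among the 5 other members abundant enough to compare, Il1b was most like Il1rap (0.94) and least like Il1rn (0.72), and over the 5 conditions of the inflammation library alone these values were 0.98 and 0.93, with Il1f9 then least like it (0.70). Over those 5 conditions Dusp1 and Arid5a were also less like Il1b, at 0.78 and 0.65. The points share runs, depth and 1 library of conditions, and these values are descriptions.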

How the data were processed

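The authors aligned reads to mm10 with Cell Ranger, per the labels, and deposited tables of UMI counts, genes by barcodes, for 7 samples, with their table of hashtag conditions and reference classes for the inflammation library. Members and gene lists were chosen with earlier results of these data known. Healthy cells were gated at 3% of UMIs from S100a8 and S100a9. Cells with fewer than 280 or more than 1842 genes (percentiles 1 and 99) or above 5% mitochondrial UMIs were left out. No doublet caller was run and free RNA was not subtracted. Genes that a run 1 table did not list were set to 0. Counts were summed per library and tested with edgeR 4.0.16 in R 4.3.3 (quasi-likelihood test, TMM factors, its filter on low counts, the run as a block, Benjamini-Hochberg adjustment over all tested genes, threshold 0.05), which was checked on simulated data. The run marks shared mice by the study's methods, and differences between runs correlated across tissues at 0.607, 0.671 and 0.564 over genes. DESeq2 1.42.0 was an alternative. Conditions, each 1 pool, were compared as CPM, the UMIs of a gene per 1000000 UMIs, without a test. Ratios of Il1b to an inhibitor had a pseudocount of 0.5 in the log2 scale. Named genes were all members, up to 4 genes per list and comparison with the largest called change, and the 5 genes most like Il1b, Il1rn and Il1r2 among those with a mean of at least 50 CPM (log2 of the level plus 10). Poisson, binomial and ratio intervals are exact, at 95%.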

Additional observations from a re-analysis of the deposited data

Results flagged for a closer look

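Il1b UMIs were also present in cells below the gate, which no comparison uses. They stood at 28.3 CPM in marrow of run 1 and 29.9 in run 2, at 478 and 415 in blood, and at 560 and 253 in spleen, all above the level that a count of 0 allows. Relative to the kept cells of the same library this was 57.0% and 12.6% in marrow, 25.4% and 11.2% in blood, and 99.1% and 8.01% in spleen, compared with 1.51% to 2.72% for S100a8, which the gate itself uses. In B-cell marker cells of spleen of run 2 the shares were 3.07% for Il1b, 2.63% for Il1rn and 3.88% for Il1r2. The source of these UMIs was not tested.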

How the results depend on the processing

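With the run as a replicate block left out, the count of members called fell from 3 to 0 in blood against marrow and from 2 to 0 in spleen against marrow. The count in blood against marrow was 5 with no cell filters and 1 with unlisted genes set to 10 UMIs, which also gave 1 in spleen against marrow and tested 28209 genes. Leaving out 1 library gave 0 to 5 members in blood against marrow and 0 to 2 in spleen against marrow. Where a library was left out, its tissue's lone sample was assumed to vary like the others. The Il1b balances of blood over marrow were 3.55 and 3.40 with and without the replicate block, since it changes only the p, and 2.41 to 4.68 (Il1rn) and 2.83 to 3.97 (Il1r2) without 1 library. Over all genes the calls in blood against marrow were 1405 with edgeR and 885 with DESeq2, 0 without the block and 0 to 2405 without 1 library. In spleen against marrow they were 115 and 194.

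With healthy blood of runs 1 and 2, made with an earlier chemistry, as reference, 1 member passed 2-fold in arthritic blood (Il18rap) in place of 0, and 6 in the joint (Il1b and Il18rap in addition) in place of 4. The log2 balance of Il1b to Il1rn was then 1.00 in arthritic blood, -0.86 in the joint, -1.22 in the lung and -2.89 in the peritoneum, and that to Il1r2 was 0.31, -1.67, -1.90 and -0.48, each with the direction it had before. Leaving out cells with other markers moved the joint's Il1rn balance from -1.43 to -1.70. Signs turned for members that no test called. With unlisted genes set to 10 UMIs, Il18rap gave -0.28 in blood and -0.15 in spleen against marrow, and 0.12 in spleen against blood. Leaving out 1 library, Il18rap ran from -0.017 to 0.36 in blood against marrow, from -0.035 to 0.24 in spleen against marrow and from -0.27 to 0.10 in spleen against blood, where Il1rap ran from -0.97 to 0.0053 and Il18 from -0.22 to 0.79. Leaving out cells with any of the full marker lists was not run for healthy tissues, since erythroid transcripts left 2 cells in blood of run 2. The shorter list of defining markers, the option of edgeR, the unlisted genes and the median-gene scaling were chosen after seeing the data. The causes of these shifts were not tested. With 2 pools per tissue and 1 per condition, differences of uncalled members cannot be taken as absent.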
